A study of Homo sapiens with 12 samples.

Results

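Stress granules are assembled around a small set of RNA-binding proteins, and the most common signal for their assembly comes from the kinases of the translation factor eIF2alpha. The 10 genes described here are 6 granule core genes, G3BP1, G3BP2, TIA1, TIAL1, CAPRIN1 and USP10, and the 4 kinase genes EIF2AK1, EIF2AK2, EIF2AK3 and EIF2AK4. They were found by their names in a table of read counts that lists 58735 genes, where each name had 1 entry. All 10 were among the 16618 genes with a mean of at least 10 reads per library, which were tested.

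The counts came from polyadenylated RNA of 2 immortalized lines of human keratinocytes. HaCaT cells derive from skin and TIGK cells from the gingiva. Both lines were kept in DermaLife K Keratinocyte Complete Medium, and the groups were HaCaT control, HaCaT H2O2, TIGK control and TIGK H2O2, each with 3 libraries. The controls were left in medium, and the treated cells were exposed to 5 mM H2O2 for 3 h. Each tissue was represented by 1 line, so that the line and the tissue it came from cannot be told apart. Nothing in the labels said that the libraries of a group came from separate cultures, and p-values then measure the spread between these libraries, which may be technical.

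When eIF2alpha is phosphorylated, its exchange factor eIF2B is blocked, initiation slows, and messenger RNA that runs off ribosomes gathers with RNA-binding proteins into cytoplasmic granules. G3BP1 and G3BP2 are paralogs that drive this condensation when they bind free RNA, CAPRIN1 favors it and USP10 opposes it by competing for the same site on G3BP. TIA1 and TIAL1 are related RNA-binding proteins with a prion-like domain, and each of the kinases senses its own kind of stress: EIF2AK1 (HRI) heme shortage and oxidative or mitochondrial stress, EIF2AK2 (PKR) double-stranded RNA, EIF2AK3 (PERK) unfolded protein in the endoplasmic reticulum, and EIF2AK4 (GCN2) uncharged transfer RNA. The study also stained granules in these lines for G3BP1 as part of its look at the response to oxidative stress. The libraries measured messenger RNA only, at another dose and time than that staining, and neither protein, eIF2alpha phosphorylation nor granules were measured here.

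Library totals lay between 30426401 and 49034244 counts. Within groups, all 12 pairs of replicates were farther apart than counting error allows, by 4.53 to 29.7 times the variance of counting alone (chi-square over its degrees of freedom). The summed level of 10 keratinocyte markers was 45800 to 56000 CPM (counts scaled to a common library total) in every library, while the summed levels of melanocyte, leukocyte and endothelial markers stayed at or under 3.43. Those of 7 fibroblast markers were 8.56 to 11.5 in HaCaT and 22.2 to 25.8 in TIGK. Mean COL1A1 was 9.885 and 9.876 CPM in HaCaT, control and treated, and 16.58 and 18 in TIGK. Mean DCN was 0.1352 and 0.01962 in HaCaT and 5.423 and 6.515 in TIGK, while COL1A2 was at 0 in all libraries of each group. All 3 fibroblast markers that were tested were called higher in TIGK when untreated. The share of counts from mitochondrial genes was 6.1% to 6.26% in HaCaT controls and 3.3% to 3.51% after H2O2, and 3.33% to 3.45% in TIGK controls and 1.39% to 1.5% after H2O2. This share differed with both the line and the treatment, and its part in the results below was not tested.

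Between the lines, the granule genes and the kinases differed in both directions within each set. In untreated cells, 9 of the 10 genes differed between HaCaT and TIGK at an adjusted p under 0.01, against 59.9% of all genes tested. TIAL1, CAPRIN1, EIF2AK1 and EIF2AK4 were higher in HaCaT, as were 29.1% of all genes, and G3BP1, G3BP2, USP10, EIF2AK2 and EIF2AK3 were higher in TIGK, as were 30.8%. After H2O2, 2 of the 10 rose in TIGK, where 23.2% of all genes were called and 10.2% rose, and 1 of the 10 fell in HaCaT, where 34.1% were called and 15.2% fell. Tests here are edgeR's quasi-likelihood test on all libraries, with p-values adjusted over all genes tested. In these bulk samples, fewer cells that express a gene and less of its RNA per cell cannot be told apart.

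**Figure D1:**
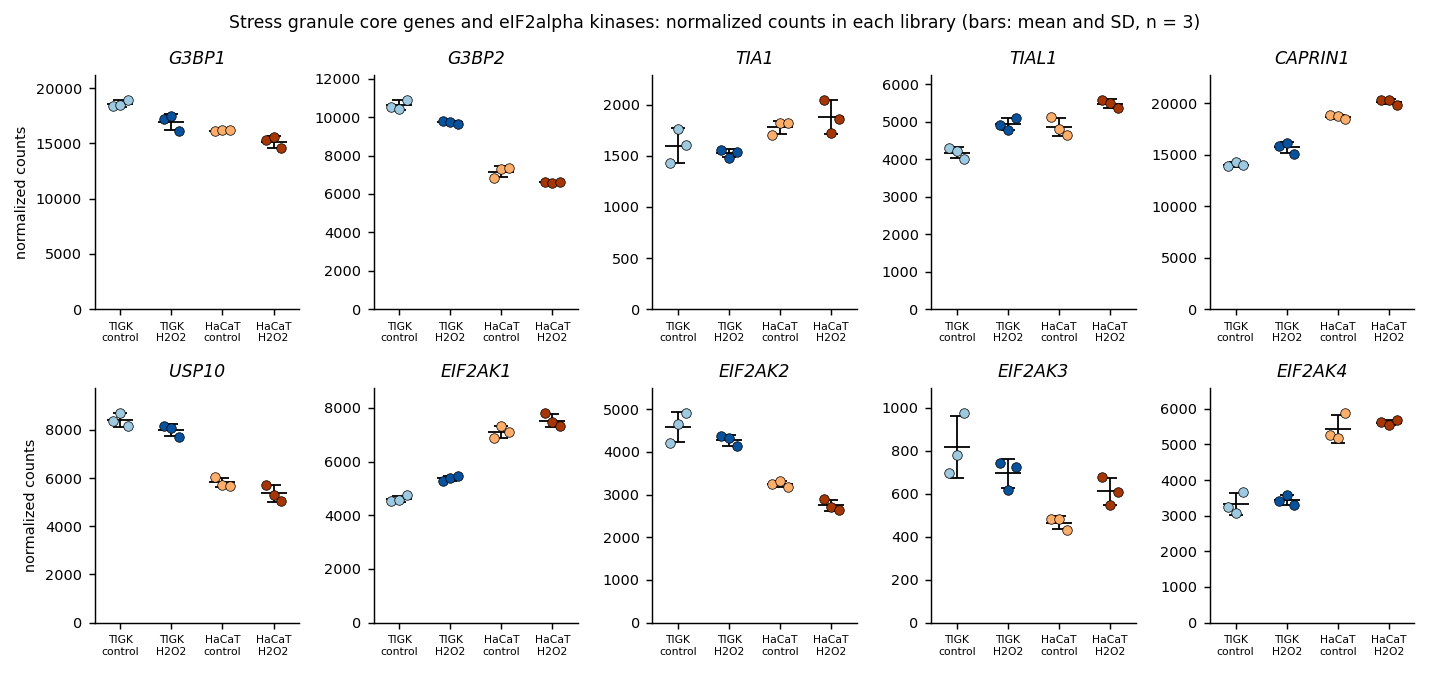
Normalized counts of the 10 genes in each library (vertical axis, starting at 0) by group (horizontal axis). Points are libraries, horizontal bars the group means and vertical bars the SD of 3 libraries. G3BP2, USP10 and EIF2AK2 sit higher in all TIGK libraries than in all HaCaT libraries, and CAPRIN1, EIF2AK1 and EIF2AK4 sit lower.

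G3BP1 is the nucleating protein that granule assays most often stain for. It is encoded on chromosome 5 from 151771045 to 151812785 of GRCh38, plus strand. Its normalized counts, which are counts scaled to the mean library total of 36279154, were 18350.2, 18510 and 18959 in TIGK controls and 16118, 16179 and 16212 in HaCaT controls. After H2O2 they were 17183, 17483 and 16150.2 in TIGK and 15331, 15605 and 14556 in HaCaT. The TIGK controls stood highest and the treated HaCaT libraries lowest, and the only neighbouring groups that overlapped were treated TIGK and untreated HaCaT. HaCaT controls were lower than TIGK controls by a log2 fold change of -0.20 ± 0.049 (SE, adjusted p = 0.00127 from edgeR, n = 3 each).

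The response of G3BP1 to H2O2 was a log2 fold change of -0.14 in TIGK (95% interval -0.24 to -0.03, edgeR adjusted p = 0.039) and -0.09 in HaCaT (-0.20 to 0.01, adjusted p = 0.134). Neither passed the limit of 0.01, although the treated and control libraries did not overlap in either line. That was true of 51.1% of all genes in TIGK and 53.8% in HaCaT. The difference of the 2 responses, TIGK minus HaCaT, was -0.04 with an interval of -0.19 to 0.10. After H2O2 HaCaT was still lower than TIGK, by -0.16 ± 0.049 (edgeR adjusted p = 0.00773), and this call was lost in 7 of 19 alternatives. Among them, the fit without HaCaT control replicate 1 gave -0.16 (adjusted p = 0.0128), without HaCaT control replicate 2 -0.16 (0.0134), without HaCaT control replicate 3 -0.16 (0.0116), without HaCaT H2O2 replicate 3 -0.13 (0.0284) and without TIGK H2O2 replicate 1 -0.15 (0.0287). On the opposite strand, ATOX1 overlaps G3BP1 over 1488 bases and held 7.33% as many reads. Whether the counting used strand is not given in the sources used here.

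The 250 bases before the RefSeq start of G3BP1 (chr5:151771704-151771953, GRCh38.p14, plus strand) held 4 matches to the CCAAT box, shown because only 0.991% of 35116 promoter windows held 4 or more, whereas 34.6% held at least 1. Capitals mark CCAAT or its reverse complement. The window lies inside the deposited limits of G3BP1, which begin at 151771045, and inside ATOX1 on the opposite strand. For EIF2AK2 and EIF2AK3, whose windows are printed below, the RefSeq start also lies inside the deposited limits of the gene. The motifs searched were chosen after the sequences and values were known, and a match is a description of the letters alone.
G3BP1: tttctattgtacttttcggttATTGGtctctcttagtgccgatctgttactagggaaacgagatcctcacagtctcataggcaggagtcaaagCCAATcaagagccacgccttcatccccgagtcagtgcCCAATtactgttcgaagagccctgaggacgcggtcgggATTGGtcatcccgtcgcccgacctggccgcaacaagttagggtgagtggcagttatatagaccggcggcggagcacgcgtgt

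G3BP2, the paralog of G3BP1 with overlapping function (chromosome 4, 75642782 to 75724525, minus strand), showed the wider gap between the lines. Its normalized counts were 10526, 10441 and 10905 in TIGK controls and 6846, 7299 and 7355 in HaCaT controls. After H2O2 they were 9809, 9720.5 and 9635 in TIGK and 6604, 6574 and 6613 in HaCaT. All 4 groups were separate, in the order TIGK control, TIGK H2O2, HaCaT control, HaCaT H2O2. HaCaT was lower than TIGK by a log2 fold change of -0.57 ± 0.048 when untreated (edgeR adjusted p = 3.55e-09) and -0.56 ± 0.048 after H2O2 (adjusted p = 4.58e-09). The response was -0.13 in TIGK (adjusted p = 0.0437) and -0.12 in HaCaT (adjusted p = 0.0497), neither under the limit, and the responses differed by -0.01 (95% interval -0.15 to 0.13).

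Divided by the gene length in the deposited table, the G3BP paralogs stood close to each other in TIGK, and G3BP1 stood above G3BP2 in HaCaT. The ratio of G3BP1 to G3BP2 counts per kilobase was 1.01, 1.03 and 1.01 in TIGK controls and 1.01, 1.04 and 0.971 after H2O2. It was 1.36, 1.28 and 1.28 in HaCaT controls and 1.34, 1.37 and 1.27 after H2O2. Every HaCaT library thus lay above every TIGK library, and treated and control libraries overlapped within each line. The closeness in TIGK rests on those lengths. Without division the ratio of counts was 1.75 ± 0.019 in TIGK controls and 2.26 ± 0.083 in HaCaT controls (SD, n = 3 each). The gap between the lines is the same on both scales, since the lengths are the same in every library. A ratio within a library does not depend on scaling between libraries, and it does not say which paralog changed. Since the genes were chosen with results of these data known, the ratios are given without a test.

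CAPRIN1 (chromosome 11, 34051683 to 34101156, plus strand) binds G3BP and promotes condensation. Its normalized counts were 13874, 14272.5 and 14026.5 in TIGK controls and 18839, 18784 and 18501 in HaCaT controls. After H2O2 they were 15878, 16187 and 15084 in TIGK and 20282, 20359.5 and 19862.5 in HaCaT. The groups did not overlap, and HaCaT exceeded TIGK by a log2 fold change of 0.41 ± 0.047 when untreated (edgeR adjusted p = 2.34e-07) and 0.36 ± 0.047 after H2O2 (adjusted p = 1.43e-06). The response was 0.16 ± 0.047 in TIGK (adjusted p = 0.0121) and 0.11 ± 0.047 in HaCaT (adjusted p = 0.0658). The first lay just outside the limit and passed it in 7 of 19 alternatives, DESeq2 on all libraries among them with 0.17 (adjusted p = 0.000378). The responses differed by 0.05 (95% interval -0.09 to 0.19).

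USP10, a deubiquitinase that binds G3BP at the site CAPRIN1 uses (chromosome 16, 84699978 to 84779922, plus strand), showed the reverse difference between the lines. Normalized counts were 8372, 8704 and 8150.2 in TIGK controls and 6043, 5724 and 5689 in HaCaT controls. After H2O2 they were 8179.9, 8067 and 7715 in TIGK and 5723, 5309 and 5054.5 in HaCaT. Treated and control libraries overlapped in both lines, and no HaCaT library reached a TIGK library. HaCaT over TIGK gave a log2 fold change of -0.53 ± 0.055 untreated (edgeR adjusted p = 6.62e-08) and -0.57 ± 0.055 after H2O2 (adjusted p = 2.28e-08). The responses were -0.07 in TIGK (95% interval -0.19 to 0.04) and -0.12 in HaCaT (-0.23 to -0.002), with edgeR adjusted p of 0.311 and 0.0889.

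The ratio of CAPRIN1 to USP10 counts per kilobase set these opposite differences side by side. In TIGK it was 1.10, 1.08 and 1.14 in controls and 1.28, 1.33 and 1.29 after H2O2. In HaCaT it was 2.06, 2.17 and 2.15 in controls and 2.34, 2.54 and 2.60 after H2O2. Treated libraries lay above controls in both lines, and the lowest HaCaT library lay above the highest TIGK library. This separation of the lines follows from CAPRIN1 and USP10 each separating them in opposite directions, and it adds no further evidence. The ratio of summed G3BP1 and G3BP2 to USP10 was 1.80 ± 0.091 in TIGK controls, 1.73 ± 0.019 in treated TIGK, 2.01 ± 0.10 in HaCaT controls and 2.03 ± 0.10 in treated HaCaT (SD, n = 3 each). Its ranges did not overlap between the treated lines (1.71 to 1.74 in TIGK and 1.91 to 2.11 in HaCaT), and they overlapped narrowly between the controls (1.72 to 1.90 in TIGK and 1.89 to 2.08 in HaCaT).

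**Figure D2:**
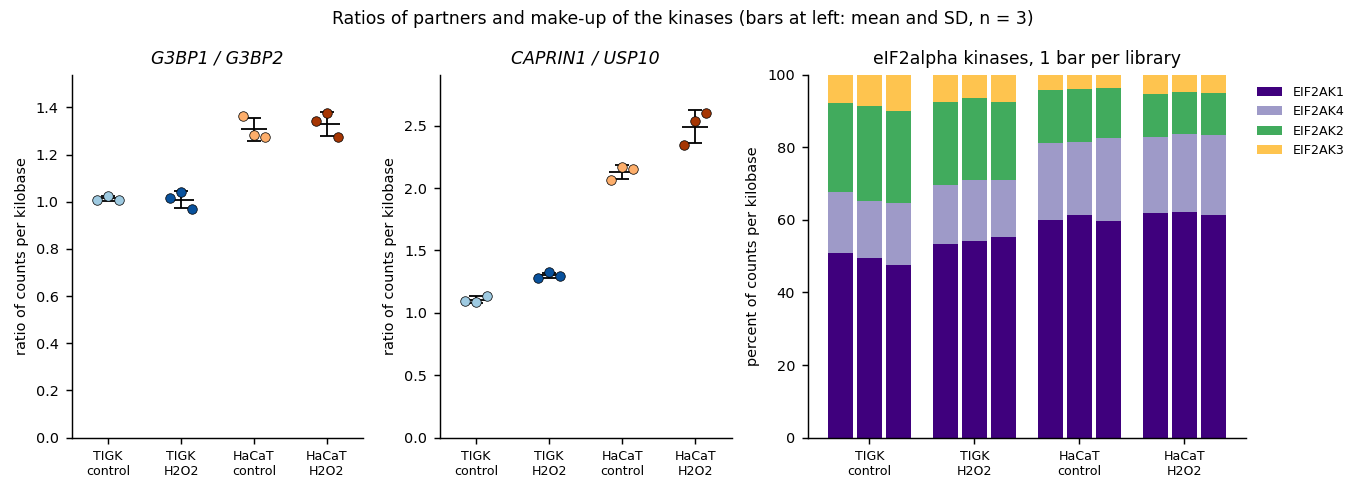
The first 2 panels plot the ratio of counts per kilobase (vertical axis, starting at 0) in each library by group, with the mean and SD of 3 libraries. The stacked bars, 1 per library, give the percent of the counts per kilobase of the 4 kinases. HaCaT libraries lie above TIGK libraries in both ratios, and EIF2AK1 takes 47.5% to 55.4% of the kinase total in TIGK and 59.6% to 62.3% in HaCaT.

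TIA1 and TIAL1 (TIAR) are the other pair of paralogs. TIA1 (chromosome 2, 70209444 to 70248660, minus strand) had 1428, 1762 and 1610.0 normalized counts in TIGK controls and 1707, 1815.9 and 1815.9 in HaCaT controls. After H2O2 it had 1555, 1480.0 and 1539 in TIGK and 2048, 1723 and 1859.9 in HaCaT. Only the treated groups were separate between the lines. HaCaT over TIGK gave a log2 fold change of 0.15 untreated (95% interval -0.01 to 0.32, edgeR adjusted p = 0.0899) and 0.30 ± 0.078 after H2O2 (adjusted p = 0.00222). The second call was lost without HaCaT H2O2 replicate 1 (0.19, adjusted p = 0.0394), without TIGK H2O2 replicate 2 (0.23, 0.0325), without TIGK H2O2 replicate 3 (0.26, 0.0201) and with library totals alone (0.23, 0.0233). The responses of TIA1 were -0.07 in TIGK (-0.23 to 0.10) and 0.08 in HaCaT (-0.09 to 0.24). C2orf42 lies over 39172 bases of TIA1 on the same strand and held 19.9% as many reads, which leaves the split of reads between them uncertain.

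TIAL1 (chromosome 10, 119571802 to 119597029, minus strand) was 1 of the 2 genes that rose in TIGK. Its normalized counts went from 4293, 4205 and 4004 in TIGK controls to 4923, 4776 and 5109.7 after H2O2, with no overlap. In HaCaT they were 5109.9, 4796 and 4647 in controls and 5585, 5493 and 5364 after H2O2, also with no overlap. H2O2 gave a log2 fold change of 0.24 ± 0.053 in TIGK (edgeR adjusted p = 0.00151), past the limit in 19 of 19 alternatives, and 0.18 ± 0.053 in HaCaT (adjusted p = 0.0109), past it in 5 of 19. The 2 responses differed by 0.07 (95% interval -0.09 to 0.23), so a difference between the lines in this rise was not seen at this spread. HaCaT controls exceeded TIGK controls by 0.22 ± 0.053 (adjusted p = 0.00122). That call was lost without HaCaT control replicate 1 (0.18, adjusted p = 0.0113) and with library totals alone (0.15, adjusted p = 0.0244), and after H2O2 the value was 0.15 (adjusted p = 0.017). The ratio of TIAL1 to TIA1 counts per kilobase was 2.14 to 2.70 in TIGK controls and 2.84 to 2.98 after H2O2, which did not overlap. In HaCaT it was 2.30 to 2.69 in controls and 2.45 to 2.86 after H2O2, which did. No test of a difference between the paralogs was made.

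Of the kinases, EIF2AK1 (HRI) had the most reads per kilobase in each group. It is encoded on chromosome 7 from 6022244 to 6059230, minus strand. Normalized counts were 4547, 4549 and 4736 in TIGK controls and 5287, 5376 and 5465 after H2O2, a separate and higher group. In HaCaT they were 6893, 7315 and 7112 in controls and 7809, 7464 and 7313 after H2O2, which overlapped. The response was a log2 fold change of 0.22 ± 0.049 in TIGK (edgeR adjusted p = 0.00182), past the limit in 19 of 19 alternatives, and 0.08 in HaCaT (95% interval -0.02 to 0.19, adjusted p = 0.174). The difference of the responses, 0.14 with an interval of -0.01 to 0.28, did not pass (edgeR adjusted p = 0.218).

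HaCaT exceeded TIGK in EIF2AK1 by 0.62 ± 0.049 untreated (edgeR adjusted p = 1.34e-09) and 0.49 ± 0.049 after H2O2 (adjusted p = 4.62e-08). AIMP2, an opposite-strand gene that overlaps the end of EIF2AK1 over 1591 bases, held 32.9% as many reads. Its own HaCaT over TIGK value was 0.89 on the log2 scale in controls, and its responses were 0.28 in TIGK and 0.57 in HaCaT. Without stated use of strand, reads in that overlap cannot be told apart, and their part in the values of EIF2AK1 was not tested.

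EIF2AK2 (PKR), an interferon-inducible kinase (chromosome 2, 37099210 to 37157065, minus strand), was the only one of the 10 genes called in HaCaT after H2O2. Its normalized counts were 3251, 3327 and 3185 in HaCaT controls and 2895, 2698 and 2641.5 after H2O2, with no overlap. In TIGK they were 4211.5, 4654 and 4915 in controls and 4373, 4326 and 4130.2 after H2O2, with overlap. The fall in HaCaT was -0.25 ± 0.061 on the log2 scale (edgeR adjusted p = 0.00293). It was no longer called without HaCaT control replicate 2 (-0.23, adjusted p = 0.0146), without HaCaT H2O2 replicate 2 (-0.23, 0.0126) or without HaCaT H2O2 replicate 3 (-0.22, 0.0103). The value in TIGK was -0.10 (95% interval -0.23 to 0.02, adjusted p = 0.191), and the responses differed by 0.14 (-0.04 to 0.32).

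EIF2AK2 was lower in HaCaT than in TIGK by -0.50 ± 0.060 untreated (edgeR adjusted p = 5.36e-07) and -0.64 ± 0.061 after H2O2 (adjusted p = 1.91e-08). The RefSeq promoter window of EIF2AK2 is printed because it held the only match to the interferon-stimulated response element among the 9 genes with a window, an element that 279 of 35116 promoter windows (0.795%) contained. The printed 255 bases (chr2:37156976-37157230, GRCh38.p14, minus strand) run through the start site and end with that element, in capitals.
EIF2AK2: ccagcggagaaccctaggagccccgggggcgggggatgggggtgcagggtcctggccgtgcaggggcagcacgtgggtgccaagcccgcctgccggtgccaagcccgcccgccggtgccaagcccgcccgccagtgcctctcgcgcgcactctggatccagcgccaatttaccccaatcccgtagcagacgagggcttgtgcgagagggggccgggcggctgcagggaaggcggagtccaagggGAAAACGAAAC

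EIF2AK3 (PERK), the kinase of the endoplasmic reticulum membrane (chromosome 2, 88556741 to 88627576, minus strand), had the fewest reads of the 10 genes, 7724 over all libraries. Its normalized counts were 696, 782 and 975.4 in TIGK controls and 743, 618 and 724 after H2O2. In HaCaT they were 484, 480 and 433 in controls and 549, 605 and 675 after H2O2. TIGK controls and treated TIGK overlapped, and all treated HaCaT libraries lay above all HaCaT controls. H2O2 gave a log2 fold change of -0.24 in TIGK (95% interval -0.48 to 0.01, edgeR adjusted p = 0.126) and 0.39 in HaCaT (0.14 to 0.64, adjusted p = 0.0129), neither under the limit.

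The responses of EIF2AK3 differed by -0.63 ± 0.17, TIGK minus HaCaT, with a 95% interval of -0.98 to -0.27. By edgeR this gave an adjusted p of 0.0204, and 0 of the 10 genes were called for a difference of responses, against 5.3% of all genes. At an unadjusted p under 0.05 there was 1, EIF2AK3, and DESeq2 on all libraries called 1, also EIF2AK3, with -0.60 ± 0.18 (adjusted p = 0.00833). Over 17 alternatives the value ranged from -0.73 to -0.48 and its adjusted p from 0.00546 to 0.105, and 3 of them passed, among them the fit without TIGK control replicate 1 (-0.73, adjusted p = 0.00912). Untreated, HaCaT was lower than TIGK by -0.81 ± 0.12 (edgeR adjusted p = 6.42e-06). After H2O2 the gap was -0.19 (95% interval -0.44 to 0.06, adjusted p = 0.171) and the groups overlapped.

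The 250 bases before the RefSeq start of EIF2AK3 (chr2:88627465-88627714, GRCh38.p14, minus strand) also held 4 CCAAT matches, in capitals on either strand, as in the window of G3BP1. They are shown beside it because no other of the 9 genes with a window had 4. The CCAAT box was absent from the windows of TIAL1, CAPRIN1, EIF2AK4 and USP10, and EIF2AK1 had no entry.
EIF2AK3: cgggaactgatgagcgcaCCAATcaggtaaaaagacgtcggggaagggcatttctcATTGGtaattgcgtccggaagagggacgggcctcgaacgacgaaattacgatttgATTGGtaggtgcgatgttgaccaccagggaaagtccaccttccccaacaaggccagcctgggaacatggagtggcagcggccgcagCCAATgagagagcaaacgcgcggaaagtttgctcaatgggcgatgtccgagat

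EIF2AK4 (GCN2), the sensor of amino acid shortage (chromosome 15, 39934146 to 40035591, plus strand), had the largest difference in favour of HaCaT among the 10 and the smallest value in each response. Normalized counts were 3249, 3064 and 3668 in TIGK controls and 3427, 3584 and 3297 after H2O2. In HaCaT they were 5254, 5170.2 and 5884 in controls and 5629, 5543 and 5675 after H2O2. Treated and control libraries overlapped in both lines, and the lines did not overlap. HaCaT over TIGK gave a log2 fold change of 0.71 ± 0.067 both untreated (edgeR adjusted p = 1.6e-08) and after H2O2 (adjusted p = 1.57e-08). The response was 0.05 in TIGK (95% interval -0.09 to 0.19) and 0.05 in HaCaT (-0.09 to 0.19), and they differed by -0.001 (-0.20 to 0.20).

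Per kilobase, the order of the kinases was EIF2AK1, EIF2AK2, EIF2AK4, EIF2AK3 in TIGK and EIF2AK1, EIF2AK4, EIF2AK2, EIF2AK3 in HaCaT. EIF2AK1 took 49.3% ± 1.7 of the summed level of the 4 kinases in TIGK controls and 54.4% ± 0.98 after H2O2, and 60.3% ± 0.93 and 61.8% ± 0.49 in HaCaT (SD, n = 3 each). EIF2AK2 took 25.3% ± 0.94 and 22.3% ± 0.63 in TIGK and 14.3% ± 0.42 and 11.6% ± 0.21 in HaCaT. EIF2AK3 went from 8.88% ± 1.0 to 7.18% ± 0.70 in TIGK and from 4.04% ± 0.30 to 5.11% ± 0.40 in HaCaT, ranges that did not overlap within either line. Without division by length, EIF2AK1 took 34.6% ± 1.4 and EIF2AK2 34.4% ± 1.3 of the kinase counts in TIGK controls, with overlapping ranges, so that the lead of EIF2AK1 there rests on the lengths. In HaCaT controls the undivided shares were 43.7% ± 1.1 for EIF2AK1, 33.4% ± 1.9 for EIF2AK4 and 20.02% ± 0.74 for EIF2AK2, in the same order as per kilobase. Summed over the kinases the level was 46.5 ± 2.7 and 49.1 ± 0.093 CPM per kilobase in TIGK, control and treated, and 58.5 ± 1.2 and 60.5 ± 1.9 in HaCaT. Summed over the 6 granule genes it was 200.4 ± 2.2 and 199.4 ± 4.5 in TIGK and 187.7 ± 1.2 and 188.7 ± 4.2 in HaCaT, so that treated and control sums overlapped in each line.

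**Figure D3:**
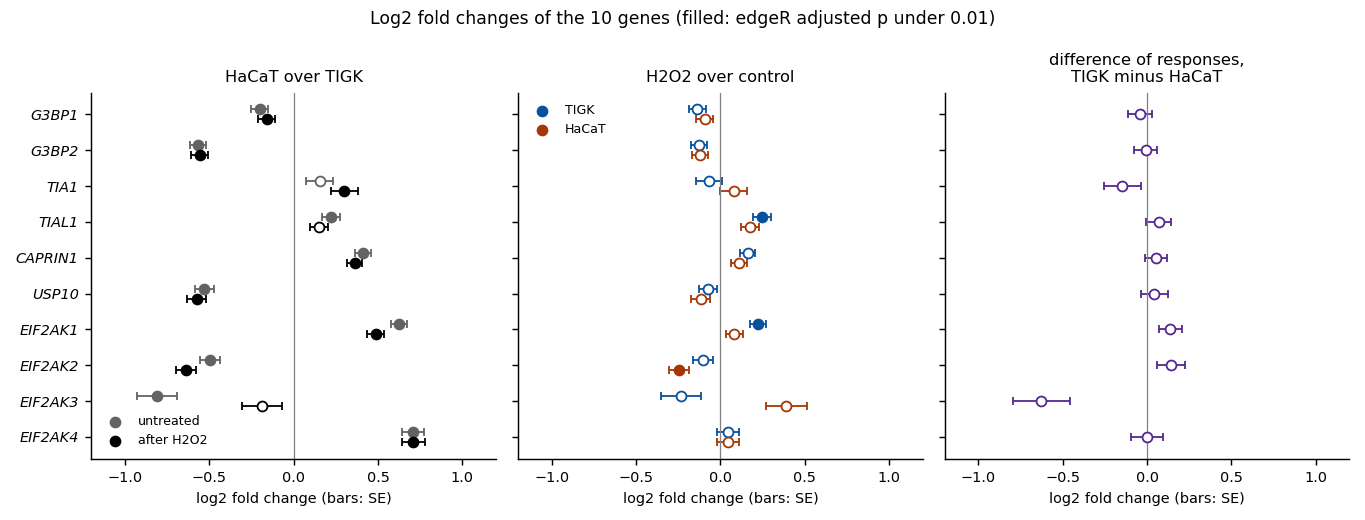
Log2 fold changes of the 10 genes (horizontal axis, bars are SE) for HaCaT over TIGK, for H2O2 over control in each line, and for the difference of the responses. Filled points are those with an edgeR adjusted p under 0.01. The line differences run from -0.81 to 0.71, the responses from -0.25 to 0.39, and no point is filled in the third panel.

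The responses of the 10 genes were smaller at the median than those of all genes tested, and the differences between untreated lines were about as large. The genes tested reach down to a mean of 10 reads and were not matched to the 10 on read count. The median absolute log2 fold change over the 10 was 0.13 for the response in TIGK and 0.11 in HaCaT, against 0.26 and 0.33 over all genes tested. Between untreated lines it was 0.51, against 0.56 over all genes. Groups of treated and control libraries did not overlap for 5 of the 10 genes in TIGK and 6 of the 10 in HaCaT, close to the shares of all genes given above, and the lines did not overlap for 9 of the 10 genes when untreated and 9 of the 10 after H2O2, against 73.3% and 71.3% of all genes. After H2O2, 8 of the 10 genes were called between the lines, 4 higher in each, against 60% of all genes, 30.2% higher in HaCaT and 29.8% in TIGK. The comparisons share libraries in pairs, so these counts are not independent of each other.

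The genes most like G3BP1 in their log2 CPM over the 12 libraries were UBE3A (Pearson r = 0.991), ACTN4 (0.980) and CPD (0.978). For EIF2AK1 they were DHX32 (0.994), MISP (0.993) and DTD2 (0.992). The libraries of both lines enter each r, and so does the difference between the lines, and no test is given.

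Around the kinases, the gene with the largest rise among those that act on eIF2 was PPP1R15A. PPP1R15A (GADD34), the stress-induced subunit that directs phosphatase 1 to eIF2alpha, rose from 3607 ± 389 to 9523 ± 315 normalized counts in TIGK and from 2073 ± 130 to 9348 ± 832 in HaCaT (SD, n = 3 each). On the log2 scale these rises were 1.40 ± 0.076 in TIGK and 2.17 ± 0.079 in HaCaT (edgeR adjusted p = 7.7e-11 and 2.15e-13). PPP1R15B, the constitutive counterpart, fell in HaCaT by 0.24 on the log2 scale (adjusted p = 0.00404). EIF5, the activator of GTP hydrolysis by eIF2, fell from 17640 ± 116 to 14770 ± 469 in TIGK and from 17570 ± 915 to 8036 ± 68.8 in HaCaT. EIF1, which acts in start-site choice, rose by 0.37 in TIGK and 0.72 in HaCaT.

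Of the 17 genes listed for eIF2, eIF2B and the eIF2alpha phosphatases, 6 rose and 1 fell in TIGK (median log2 fold change 0.12, against 0.01 over all genes) and 9 rose and 2 fell in HaCaT (0.21, against 0.04). Calls thus took 41.2% of this list in TIGK and 64.7% in HaCaT, against 23.2% and 34.1% of all genes. Of all genes 10.2% rose and 12.9% fell in TIGK, and 18.9% rose and 15.2% fell in HaCaT. These shares are the background for the lists that follow, and no test of a list against it was made. The background was not matched to this list or the others on read count. Its share of rises in HaCaT also moved with the fit, as given in the last section. Untreated, 3 were higher in HaCaT, led by CDC123 (1.06 ± 0.075) and EIF2B5 (0.74 ± 0.054), and 5 were higher in TIGK, led by PPP1R15A (-0.80 ± 0.077) and EIF2B3 (-0.44 ± 0.089), by the same test. These calls took 47.1% of the list, against 59.9% of all genes, and DESeq2 gave 3 higher in HaCaT and 9 higher in TIGK. For the difference of the responses 3 of the 17 (17.6%) were called, PPP1R15A, EIF5 and EIF1, against 5.3% of all genes.

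The 20 symbols listed for regulators of the kinases stood for 18 genes, since GCN1L1 and KIAA0141 are older names of GCN1 and DELE1, and all 18 were tested. In each line 7 rose and 3 fell, 55.6% of the list against 23.2% of all genes in TIGK and 34.1% in HaCaT (median 0.18 in TIGK and 0.20 in HaCaT). HSPA8, the chaperone HSC70, rose by 0.57 ± 0.13 in TIGK and 1.05 ± 0.13 in HaCaT. STAU2, a binder of double-stranded RNA, rose by 0.60 ± 0.078 in TIGK, and OMA1, the mitochondrial protease that acts upstream of EIF2AK1, rose by 0.73 ± 0.14 in HaCaT. STAU2 also rose in HaCaT, from a mean of 727.2 to 934.6 normalized counts, and OMA1 in TIGK, from 252.3 to 371.5. ERN1 (IRE1), the other kinase sensor of the endoplasmic reticulum, fell by 1.32 in TIGK and 0.85 in HaCaT on the log2 scale. GCN1, the ribosome-bound activator of EIF2AK4, fell by 0.28 in TIGK and 0.27 in HaCaT. Untreated, 3 were higher in HaCaT, among them IMPACT (0.74 ± 0.057), an inhibitor of EIF2AK4, and NCK1 (0.41 ± 0.072), and 7 were higher in TIGK, among them ADAR (-0.54 ± 0.062), which edits double-stranded RNA, and STAU2 (-0.53 ± 0.080). The untreated calls took 55.6% of the list, against 59.9% of all genes. For the difference of the responses edgeR called 0 of the 18, with 3 at an unadjusted p under 0.05, and DESeq2 called 0.

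Of 37 other stress granule proteins, 2 rose and 5 fell in TIGK (median 0.01) and 6 rose and 8 fell in HaCaT (median -0.02). The called shares, 18.9% in TIGK and 37.8% in HaCaT, were near the 23.2% and 34.1% of all genes. DESeq2 gave 4 rises and 7 falls in TIGK and 6 rises and 9 falls in HaCaT. FXR1, a relative of the fragile X protein, rose in both, from 5141 ± 272 to 7433 ± 69.5 normalized counts in TIGK and from 5413 ± 194 to 7429 ± 199 in HaCaT. ZC3HAV1 rose by 0.37 ± 0.068 in TIGK and ELAVL1 (HuR) by 0.38 ± 0.053 in HaCaT. NUFIP2, which binds G3BP, fell by 0.59 in TIGK and 0.90 in HaCaT, and PRRC2C fell by 0.58 and 0.62. Untreated, 9 were higher in HaCaT, led by CIRBP (0.98 ± 0.060) and OGT (0.87 ± 0.069), and 12 were higher in TIGK, led by the poly(A)-binding protein PABPC1 (-0.63 ± 0.045) and VCP (-0.56 ± 0.052). The untreated calls took 56.8% of the list, against 59.9% of all genes. For the difference of the responses edgeR called 0 of the 37, with 8 at an unadjusted p under 0.05, and DESeq2 called 4 in one direction and 2 in the other.

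The P-body list of 19 genes, whose products decay or silence messenger RNA in neighbouring granules, had 3 rises and 5 falls in TIGK (median -0.18) and 1 rise and 10 falls in HaCaT (median -0.24). Calls took 42.1% of the list in TIGK and 57.9% in HaCaT, against 23.2% and 34.1% of all genes, of which 12.9% and 15.2% fell. DESeq2 gave 2 rises and 10 falls in HaCaT. AGO2, the slicing Argonaute, fell by 1.01 in TIGK and 1.40 in HaCaT, DCP2, the decapping enzyme, by 0.71 in TIGK, and AGO1 by 0.67 in HaCaT, all on the log2 scale. DCP2 also fell in HaCaT, from a mean of 1280 to 829.8 normalized counts, and AGO1 in TIGK, from 2515 to 1864. LSM14B rose by 0.30 ± 0.066 and 0.31 ± 0.067, and TNRC6B rose by 0.34 ± 0.078 in TIGK and fell by 0.63 in HaCaT. Between the untreated lines 6 were higher in HaCaT, led by PAN3 (1.36 ± 0.10) and XRN1 (0.72 ± 0.091), and 8 in TIGK, led by TNRC6C (-0.99 ± 0.19) and EDC4 (-0.86 ± 0.066). These calls took 73.7% of the list, against 59.9% of all genes.

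Downstream of eIF2alpha, 18 integrated stress response targets gave 4 rises and 4 falls in TIGK (median -0.02) and 6 rises and 2 falls in HaCaT (median 0.22). In each line these were 44.4% of the list, against 23.2% of all genes in TIGK and 34.1% in HaCaT. ATF3 rose from 1726 ± 199 to 5068 ± 228 normalized counts in TIGK and from 465.1 ± 10.9 to 5398 ± 694 in HaCaT, and DDIT3 (CHOP) from 381 ± 36.3 to 806 ± 23.5 and from 187 ± 5.74 to 375 ± 106. CEBPB fell by 0.82 in TIGK and 0.70 in HaCaT, and SLC7A11, the cystine transporter, by 0.94 and 0.61. Untreated, 12 of the 18 were higher in TIGK and 1, CARS (0.35 ± 0.069), in HaCaT, with a list median of -0.67 against -0.01 over all genes. The untreated calls took 72.2% of the list, against 59.9% of all genes, of which 30.8% were higher in TIGK and 29.1% in HaCaT. CHAC1 was the extreme of the list, with 818 ± 73.4 normalized counts in TIGK controls and 15.1 ± 8.2 in HaCaT controls, followed by ASNS with 107 ± 17.2 and 4.23 ± 3.3.

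In the arm that acts on eIF4E, 7 of 8 listed genes passed the filter on low counts, which EIF4EBP3 did not, and 2 rose in TIGK (median 0.14) and 4 in HaCaT (median 0.25). Of all genes, 10.2% and 18.9% rose. EIF4EBP1, the inhibitor of eIF4E, rose by 0.32 ± 0.086 in TIGK and 0.71 ± 0.084 in HaCaT, and EIF4E2 by 0.31 ± 0.076 and 0.30 ± 0.076. In untreated cells EIF4EBP2 (0.52 ± 0.055) and EIF4EBP1 (0.50 ± 0.086) were higher in HaCaT and EIF4E (-0.69 ± 0.069) and EIF4E2 (-0.25 ± 0.076) in TIGK. The untreated calls took 57.1% of the 7, against 59.9% of all genes. For the difference of the responses edgeR called 0 of the 7, with 3 at an unadjusted p under 0.05, and DESeq2 called 0.

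**Figure D4:**
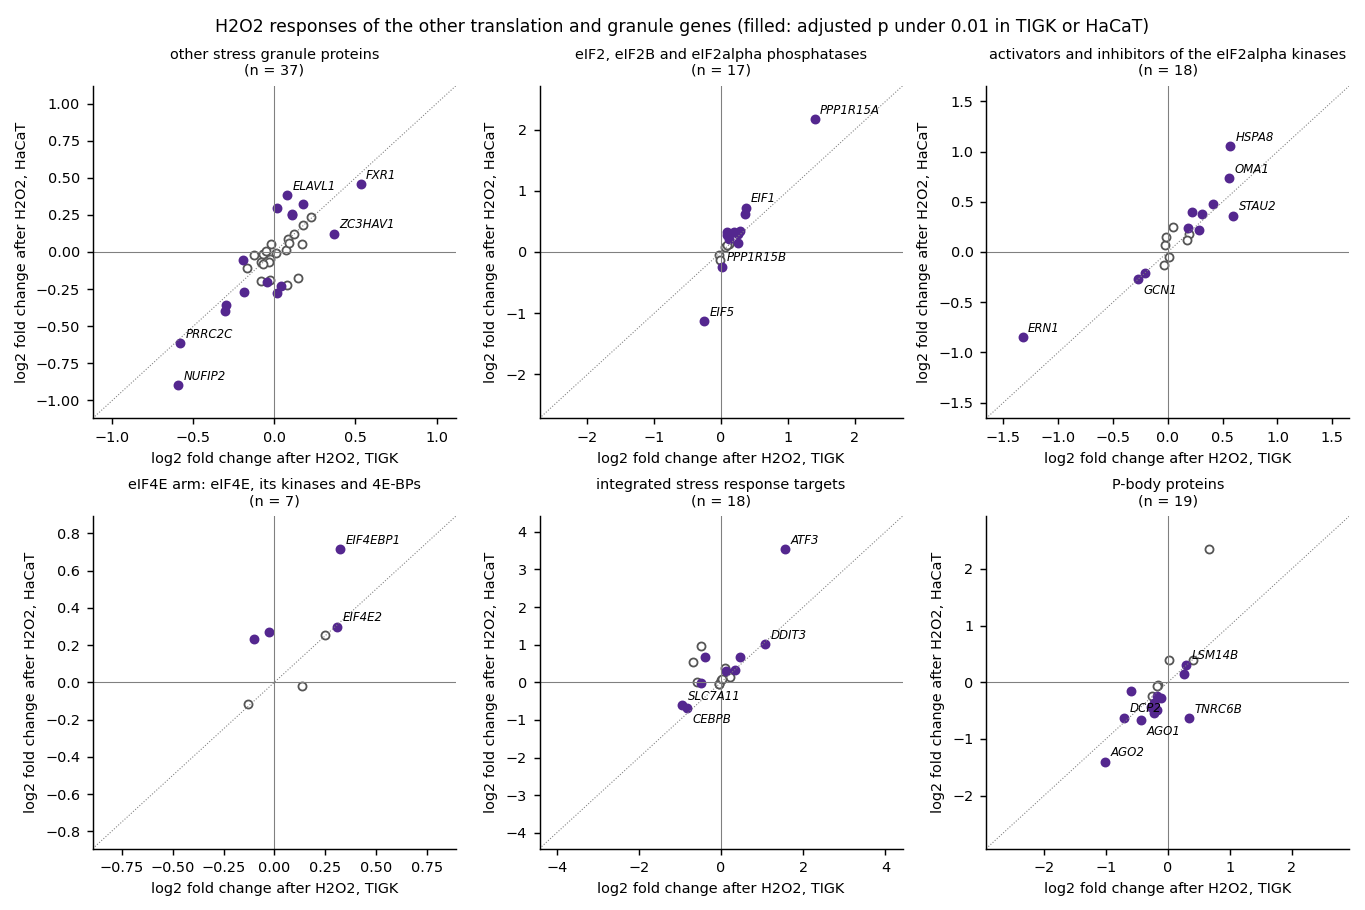
Log2 fold changes after H2O2 in TIGK (horizontal axis) and HaCaT (vertical axis) for each gene of the 6 lists around the granule and kinase genes. Filled points passed the limit in TIGK or HaCaT, the dotted line marks equal responses and names mark the largest calls. PPP1R15A and ATF3 lie farthest up in their panels, with values of 1.40 and 1.55 in TIGK and 2.17 and 3.54 in HaCaT.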

How the data were processed

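Polyadenylated RNA of 2 cell lines was sequenced in 12 libraries, 3 per group, grouped by the labels. The authors deposited raw counts per gene, made on GRCh38 without normalization. Their processing notes name HISAT2 (2.0.5 and 2.0.0), StringTie 1.3.3b and featureCounts 1.5.0-p3, without saying which version made these counts. The annotation release and the use of strand are not given in the sources used here. Gene annotation is that of the deposited table. Tables of fold changes and p-values that the authors also deposited, for 4 comparisons, were left unused. No line lacked a gene (0), and the number of unused columns of sample values was 0.

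Tests ran in edgeR 4.0.16 (R 4.3.3, limma 3.58.1), plots in matplotlib 3.10.9 (Python 3.11.15). Genes were kept when their raw counts averaged at least 10. With TMM scaling, edgeR's quasi-likelihood model took all libraries and gave each group 1 mean, and p-values were adjusted by Benjamini-Hochberg over 16618 genes at a limit of 0.01. From it came 5 comparisons: the response in each line, HaCaT against TIGK with and without H2O2, and how far the responses differed. Levels of different genes were compared only as CPM per kilobase of the deposited gene length. The model was tested on simulated data. Taken over the genes together, replicates spread wider than counting error. For genes with many reads, precision is thus set by that spread and less by depth. For genes with few reads, counting error weighs as well.

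Alternatives were DESeq2 1.42.0, fits to only the groups compared, other scalings, no filter, a limit of 0.05, a block on replicate numbers, fits that left out 1 library each, and levels without division by length. Numbers of alternatives that a call passed are over those at the limit of 0.01. The genes, the 6 lists and the rule for naming were chosen with earlier results of these data known. Named were the 10 genes, and from each list the 2 largest rises and 2 largest falls called in each response and in the untreated comparison, with separate groups and a mean of at least 100 normalized counts in the higher one, and all calls for the difference of the responses. Other genes are given as counts. Promoter windows were RefSeq's, from 250 bases before to 50 after the start, and both strands were searched for the CCAAT box (CCAAT), the cAMP response element (TGACGTCA), the AP-1 site (TGANTCA), the antioxidant response element (TGACNNNGC), the CEBP-ATF response element (TGATGNAA), and the NRF1 site and interferon-stimulated response element by their usual consensus.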

Additional observations from a re-analysis of the deposited data

Results flagged for a closer look

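For 8 of the 116 genes tested from the 6 lists around the granule and kinase genes (6.9%, near the 5.3% of all genes), the responses of the 2 lines differed by the test of the difference itself (log2 fold change in TIGK minus that in HaCaT, edgeR adjusted p under 0.01). ATF3 differed by -1.98 ± 0.13, CHAC1 by -1.44 ± 0.32, TRIB3 by -1.08 ± 0.095, PPP1R15A by -0.77 ± 0.11 and EIF1 by -0.36 ± 0.079 (SE), all with the higher response in HaCaT. EIF5 differed by 0.87 ± 0.071 and DDX6 by 0.32 ± 0.076, and both fell less in TIGK than in HaCaT. TNRC6B differed by 0.97 ± 0.11, with a rise in TIGK and a fall in HaCaT. TRIB3, which inhibits AKT, went from 2079 ± 117 to 1575 ± 41.3 normalized counts in TIGK and from 2368 ± 80.7 to 3790 ± 337 in HaCaT (SD, n = 3 each). TNRC6B, the scaffold of Argonaute proteins, went from 1077 ± 81.9 to 1367 ± 6.04 in TIGK and from 1413 ± 104 to 912.5 ± 63.6 in HaCaT. DDX6, a P-body helicase, went from 8472 ± 107 to 7265 ± 213 in TIGK and from 8178 ± 304 to 5605 ± 327 in HaCaT.

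ATF3, EIF5, PPP1R15A, TNRC6B and TRIB3 stayed past the limit in 17 of 17 alternatives. CHAC1 did so in 8 of 17, DDX6 in 7 and EIF1 in 6, with highest adjusted p of 0.0285, 0.028 and 0.0683, and most of the alternatives that ended these calls left out a library. CHAC1 had only 15.1 ± 8.2 normalized counts in HaCaT controls and 31.2 ± 5.75 after H2O2, against 818 ± 73.4 and 587 ± 30.9 in TIGK.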

How the results depend on the processing

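No value of the 10 genes that passed the limit changed sign under an alternative. For the response in HaCaT, the number of the 10 genes called went from 1 to 3 with DESeq2 on all libraries, 2 with library totals alone, 2 without the filter on low counts and 4 at a limit of 0.05. For the response in TIGK it went from 2 to 3 with DESeq2 on all libraries, by CAPRIN1, and to 5 at that limit. CAPRIN1 also passed in TIGK with library totals alone and without the filter. Library totals alone ended the calls of TIAL1 between untreated lines and of TIA1 between treated lines. For the difference of the responses the number called went from 0 to 1 with DESeq2, 1 without the filter and 1 at the limit of 0.05, each time EIF2AK3. Leaving out 1 library gave 0 to 3 calls in HaCaT, 2 to 3 in TIGK, 8 to 9 between untreated lines, 7 to 8 between treated lines and 0 to 1 for the difference. Over all genes, calls for the difference of the responses went from 881 to 1426 with DESeq2, 2019 at the limit of 0.05, 558 and 577 without HaCaT control replicate 1 and 2, and 536 and 571 without TIGK H2O2 replicate 2 and 3, and calls in TIGK from 3850 to 5998 at the limit of 0.05. In HaCaT, rises over all genes went from 3135 to 2148 with edgeR on the groups compared alone. They were 2407 without TIGK control replicate 2 and 3368 with library totals alone. Falls in HaCaT went from 2529 to 2520, 2688 and 2367 in the same fits. The causes of these changes were not tested. Fits on the groups compared alone give no difference of responses. With the replicate number as a block the counts were 2 in TIGK, 1 in HaCaT, 9 untreated, 7 after H2O2 and 0 for the difference, and only the call of G3BP1 after H2O2 was lost (-0.16, edgeR adjusted p = 0.0158). No pairing of the libraries by replicate number was seen, since 0 of 18 pairs had a correlation over 0.1 (range -0.12 to 0.026). These correlations take all genes tested, those with few reads included, and cannot exclude a pairing. Without division by length G3BP1 had a higher CPM than CAPRIN1 in TIGK (512.9 against 387.5 in controls), whereas per kilobase CAPRIN1 was higher (50.4 against 41.3).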
